A study of Mus musculus with 13 samples.

Results

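The genes described here are the Janus kinases Jak1, Jak2, Jak3 and Tyk2 and the phosphatases Ptpn1, Ptpn2 and Ptpn6, which remove phosphate from those kinases or from the STAT proteins they activate. Anti-STAT3 peaks at these genes were taken by position alone. Every peak that overlapped the span of 1 of these 7 genes or the 50 kb on either side was kept. This gave 43 of 13513 peaks. Peaks of different libraries that shared at least 1 bp were joined into regions, which left 21 of the 11227 regions of the series, 17 of them found in wild-type cells. Regions are numbered within each gene's window by position, and a distance from a region to a gene or start site is that of the region's strongest summit.

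CUT&RUN was used to map binding: an anti-STAT3 antibody tethers a nuclease to chromatin inside permeabilised cells, and the DNA fragments it cuts free are sequenced. Mouse splenic B cells were grown for 96 h with anti-CD40 (1 µg/mL), which stands in for T cell help, and IL-4 (12.5 ng/mL), and IgM+ and IgG1+ cells were then sorted. The sorted cells received anti-CD40 for 1 h more, together with either more IL-4 (12.5 ng/mL) or, in its place, 10 ng/mL of IL-21. Wild-type (WT) cells gave 2 libraries for each cytokine and isotype and STAT3 knockout (KO) cells 1 library for each, 12 in all, and the input sample was not analysed here. Every group had thus been exposed to anti-CD40 and IL-4 beforehand. No IL-4 is recorded for the hour with IL-21, so the arrival of IL-21 and the withdrawal of IL-4 cannot be told apart. Strain, age, the knockout allele, the cells in which it was deleted and whether replicates came from separate animals are not given in the labels, so p-values over libraries measure a spread that may be technical.

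Cytokine receptors of this type have no enzyme of their own and carry Janus kinases on their tails. The common gamma chain, shared by the receptors for IL-21 and IL-4, binds JAK3, while JAK1 sits on the cytokine-specific chain. Binding of the cytokine lets the kinases phosphorylate each other and the receptor, after which STAT3 (mainly for IL-21) or STAT6 (mainly for IL-4) is phosphorylated, enters the nucleus and binds DNA. The signal is ended by phosphatases and by inhibitors such as the SOCS proteins. A peak at a gene of this pathway marks where the antibody gave signal and carries no measure of that gene's expression. KO libraries gave 4 of the 43 peaks in these windows, so a peak alone does not place STAT3.

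The lists held 623 to 2034 peaks per library, and in each the smallest peak rested on 10 to 12 fragments. More are needed where the local background is higher: a peak at Jak1 in the second IgM library with IL-21 held 25 fragments over a background of 9.22 and was among the last called. A place without a peak may therefore still hold fragments. The deposited peak lists measure no RNA, so the cell type could not be tested on its markers. All 5 B cell marker genes looked up had a region in their windows, as did 1 of 3 T cell and 2 of 3 myeloid markers. Of these 11, 0 had a region gained with IL-21. Among all protein-coding genes, 56.1% had a region in such a window and 1.38% a gained one, so these counts do not identify a cell type. No library repeated a peak record of another (0 identical records). The first WT IgG1 library with IL-21 had a shorter list (865 peaks) than the other 3 with IL-21 (1171 to 2034), and it held 3 of the 4 member regions that those 3 all had.

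Jak3 and Ptpn1 carried the sites found in all 4 WT libraries with IL-21. A region on the start site of Jak3 was called in each of the 4 WT libraries with IL-21 and in 3 of the 4 with IL-4. At Ptpn1, a region upstream of the gene and another inside it were each called in the 4 WT libraries with IL-21 and in none of the 4 with IL-4, the pattern termed gained here. None of these 3 regions had a peak in any of the 4 KO libraries. Jak1, Ptpn2 and the window of Ptpn6 had regions in 2 or 3 of the WT IL-21 libraries, Tyk2 had only regions seen in a lone library, and the window of Jak2 held 0 regions.

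**Figure D1:**
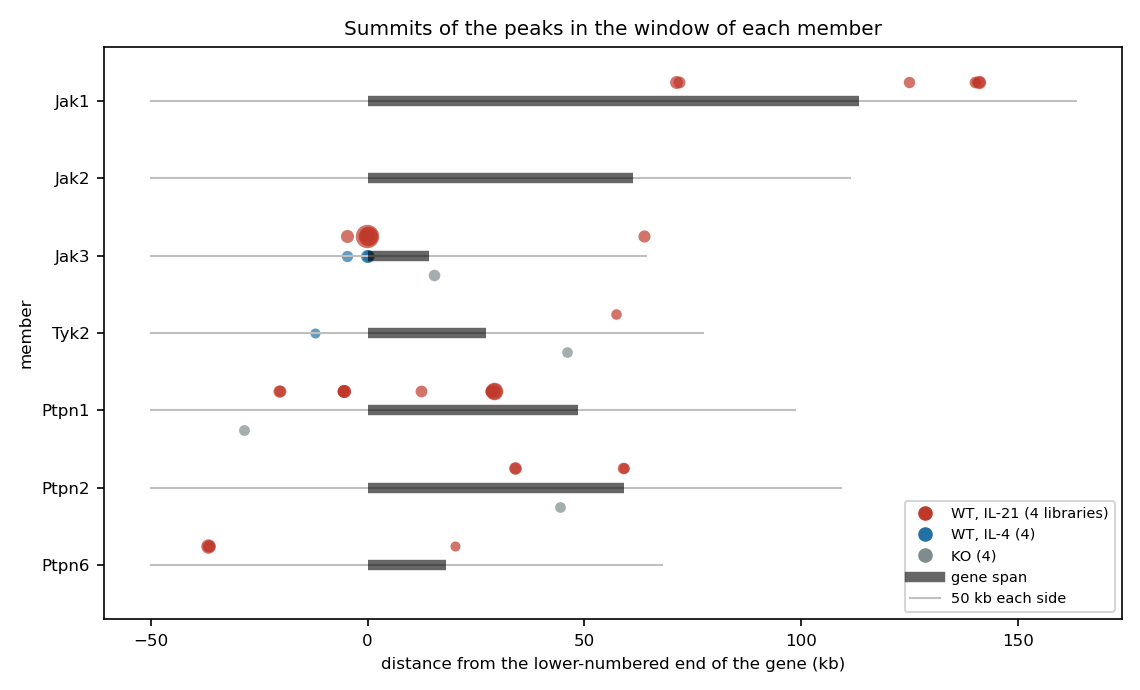
Position of every peak summit in the 7 windows, in kb from the lower-numbered end of each gene (black bar, gene span; grey line, 50 kb each side). Red points are WT libraries with IL-21, blue WT with IL-4 and grey KO, and larger points have a higher fold enrichment; Jak3 and Ptpn1 hold the largest points and Jak2 holds none.

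Counted by library, the WT IL-21 lists had a peak in the windows of 6 and 5 of the 7 genes in IgM cells and of 2 and 5 in IgG1 cells. The same lists had a peak in the windows of 18%, 11.1%, 8% and 14% of all 21887 protein-coding genes. The WT IL-4 lists reached 2 and 1 of the 7 genes in IgM cells and 1 and 0 in IgG1 cells, against 11.7%, 7.15%, 5.39% and 4.22% of all genes. The KO lists reached 1 (IgM) and 0 (IgG1) of the 7 with IL-21 and 2 (IgM) and 1 (IgG1) with IL-4, against 8.81%, 5.67%, 7.68% and 13.8% of all genes. The lists differed in length. Those of WT held 2034, 1171, 865 and 1485 peaks with IL-21 and 1455, 853, 651 and 623 with IL-4. Those of KO held 1073 and 648 peaks with IL-21 and 763 and 1892 with IL-4. From these, the 4 WT IL-21 lists together placed 34 peaks in the 7 windows, the WT IL-4 lists 5 and the KO lists 4. The WT IL-21 counts met the others only at 2 genes, the value of the first IgG1 library with IL-21, of the first WT IgM library with IL-4 and of the KO IgM library with IL-4.

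Over all 12 libraries, 6 of the 7 windows held a region, where 56.1% of all protein-coding genes had one. The 7 windows held a median of 3 regions, against 1 for all genes, at median window lengths of 148636 bp and 117169 bp. Of the 17 member regions found in WT, 2 were gained, where 1.31% of all 7461 WT regions were gained. By gene, 1 of the 7 had a gained region, against 1.38% of all genes, and 2 of the 7 had a region of all 4 WT IL-21 libraries, against 2.14%. No member region showed the reverse pattern, found throughout the 4 IL-4 and in no IL-21 library, and 0% of all WT regions did. Fisher's exact test of peak calls (4 of 4 against 0 of 4 libraries) gave p = 0.0286 for each gained region, and no smaller p can be had from this design. Of the 7461 regions, 0 (0%) passed Benjamini-Hochberg adjustment of these exact p-values (adjusted p = 1 for both gained regions), with 98 at an unadjusted p under 0.05.

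**Figure D2:**
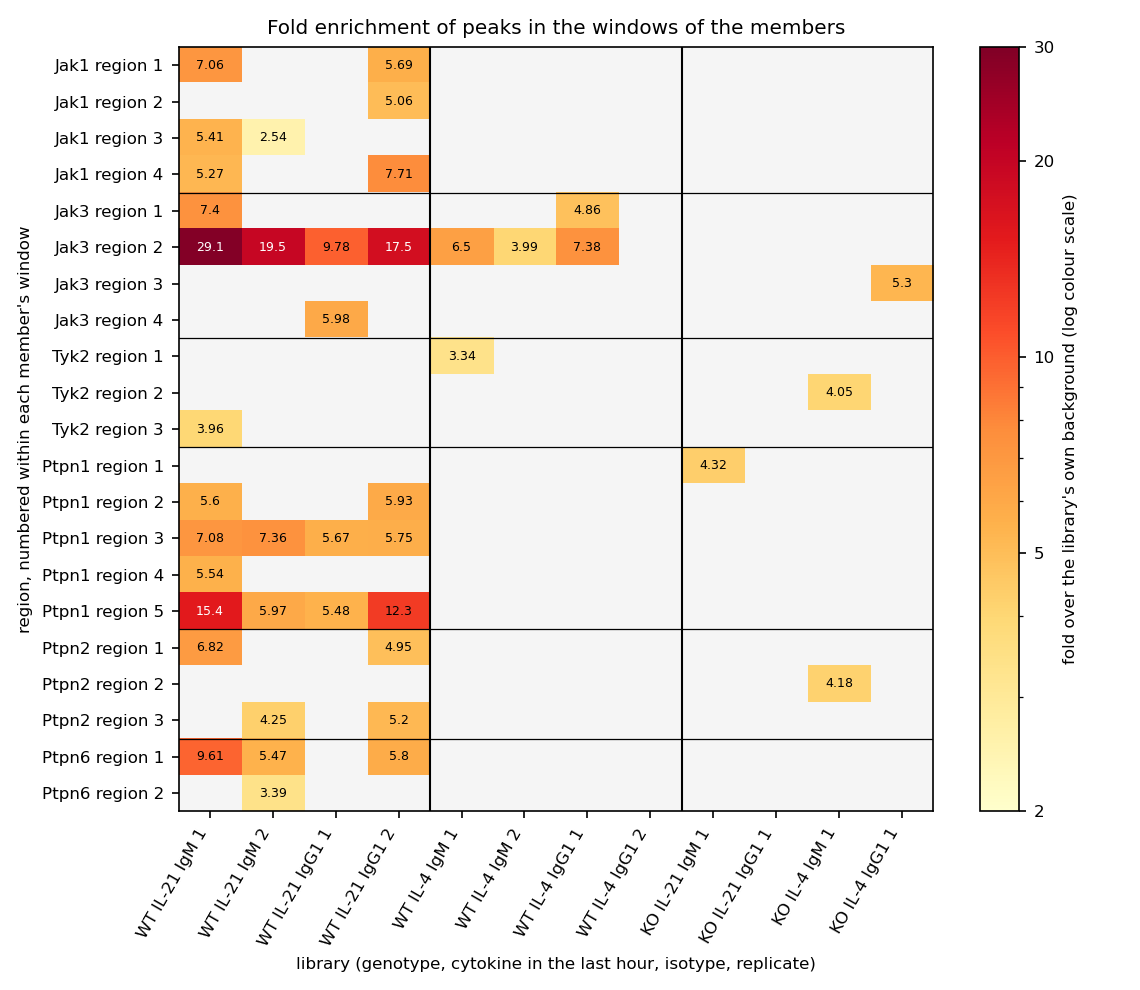
Fold enrichment over each library's own background for every member region (rows) and library (columns), with empty cells where no peak was called; where a library had 2 peaks in a region, the 1 with the higher −log10 p is shown. The first 4 columns (WT, IL-21) hold most of the filled cells, and only regions 1 and 2 of Jak3 are filled in WT libraries of both cytokines.

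Jak3 encodes the kinase bound to the common gamma chain. It lies on chromosome 8 at 71676383 to 71690577 (mm10, + strand), and its start-site region ran from 71676008 to 71676730. Fold enrichment there, a level relative to the background of the same library, was 29.1 and 19.5 in the IgM libraries with IL-21 and 9.78 and 17.5 in the IgG1 libraries with IL-21. With IL-4 it was 6.50 and 3.99 in IgM cells and 7.38 in the first IgG1 library, and the second IgG1 library had no peak. The 4 IL-21 values thus lay above the 3 IL-4 values. The share of all regions with that order is not given here, so the order is a description of this site only. Presence alone did not separate the cytokines (4 of 4 against 3 of 4 libraries, Fisher's exact test, p = 1). No test was made on the folds, each of which is set by its own library.

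The peaks rested on 120, 104, 45 and 80 fragments at the summit with IL-21 (first and second IgM, first and second IgG1 library) and on 36, 20 and 34 with IL-4. Ranked by −log10 p within its own list, the site stood at position 20 of 2034 and 16 of 1171 in the IgM IL-21 libraries and at 38 of 865 and 26 of 1485 in the IgG1 IL-21 libraries. With IL-4 it stood at 38 of 1455, 326 of 853 and 20 of 651. It therefore ranked in the top 5% of the list in all 4 IL-21 libraries and in 2 of the 3 IL-4 libraries with a peak. The lists differ in length, so the ranks describe each library and show no change between them.

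The 4 IL-21 summits fell within 8 bp of each other, 6 to 14 bp upstream of the transcription start. The IL-4 summits lay 14 bp upstream in the IgG1 library and 85 and 35 bp downstream in the IgM libraries. The promoter of Jak3 is printed because the peak covers it entirely in the first IgM and first IgG1 libraries with IL-21 and the 4 IL-21 summits lie inside it. The sequence is RefSeq's (GRCm38.p6, the assembly behind mm10), chr8:71676133-71676432, + strand, from 250 bases before the start to 50 after, and the capitals mark the 9 bases from the first to the last of the 4 IL-21 summits, positions 237 to 245 of the window.

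Jak3: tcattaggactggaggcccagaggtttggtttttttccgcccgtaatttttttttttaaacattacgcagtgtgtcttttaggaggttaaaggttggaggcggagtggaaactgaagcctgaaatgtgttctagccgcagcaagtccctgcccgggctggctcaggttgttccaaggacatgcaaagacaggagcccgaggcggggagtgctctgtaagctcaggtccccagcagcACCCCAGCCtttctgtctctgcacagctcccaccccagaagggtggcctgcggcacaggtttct

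STAT dimers prefer a palindrome of the form TTCNNNGAA, and STAT6 also binds a form in which 4 bases, of any kind, stand between TTC and GAA. Both read the same on either strand. Neither was found in the Jak3 window as printed. Of all 32817 promoter windows of this length 8.29% held TTCNNNGAA and 6.94% held the form with the longer spacer. Of the 92 windows overlapped by a region of all 4 WT IL-21 libraries, 33 (35.9%) held the first and 6 (6.52%) the second. The Jak3 window is thus among the 59 of these 92 without the first motif, and the parts of the region outside the window were not read. Promoter windows were matched for 6 of the 7 genes (all but Ptpn2). Those of Jak1, Jak2, Tyk2, Ptpn1 and Ptpn6 had neither motif and no peak.

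The other 3 regions in the window of Jak3 lay nearer to other genes. Region 1 (71671513 to 71671828), at the start of Unc13a, had a fold of 7.40 in the first IgM library with IL-21 and 4.86 in the first WT IgG1 library with IL-4. Region 3 (71691486 to 71691744), inside B3gnt3, was called only in KO IgG1 cells with IL-4, at a fold of 5.30. Region 4 (71739922 to 71740169) lay 10686 bp from Fcho1 and had a fold of 5.98 in the first IgG1 library with IL-21.

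Ptpn1 encodes PTP1B, a phosphatase of JAK2 and TYK2. The gene lies on chromosome 2 at 167930750 to 167979385 (+ strand), and all 5 regions in its window had Ptpn1 as their nearest protein-coding gene. At least 5 regions were found in the windows of 1.85% of all genes. The upstream gained region, region 3 (167924970 to 167925529), had its strongest summit 5490 bp outside the gene span and 7067 bp before the start in the promoter table. Its fold was 7.08 and 7.36 in the IgM and 5.67 and 5.75 in the IgG1 libraries with IL-21, with no peak in the other 8 libraries. These 4 values were close to each other. The summits spread over 144 bp, at 167925255 and 167925260 in IgM and at 167925129 and 167925116 in IgG1 cells. The peaks rested on 21, 29, 17 and 18 fragments and stood in the top 24.3%, 12.6%, 27.9% and 29.8% of their lists.

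The second gained region, region 5 (167958973 to 167960164), lay inside the gene, 27616 bp past that start at its best summit. The gene table holds spans without exons, so exon or intron is not given. The fold was 15.4 in the first IgM library and 12.3 in the second IgG1 library, and these peaks were 1048 and 1017 bp long. The second IgM library had 2 shorter peaks there, at folds of 5.97 and 6.03, and the first IgG1 library had 1, at 5.48. Pileups were 50 and 45 fragments in the long peaks and 27, 25 and 20 in the short ones.

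The summits of region 5 formed a pair of groups 626 bp apart. The lower group (167959275 to 167959317) held the summits of the second IgM and the first IgG1 library. The upper group (167959943 to 167959975) held those of the first IgM, second IgM and second IgG1 library. The long peaks covered both groups, and the peak of the first IgG1 library covered the lower group only. When peaks were joined only where their summits lay within 200 bp, neither group had a summit in all 4 libraries, and the number of gained member regions was 1 (region 3) in place of 2. All 4 libraries had a peak over the lower group, and 3 over the upper.

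**Figure D3:**
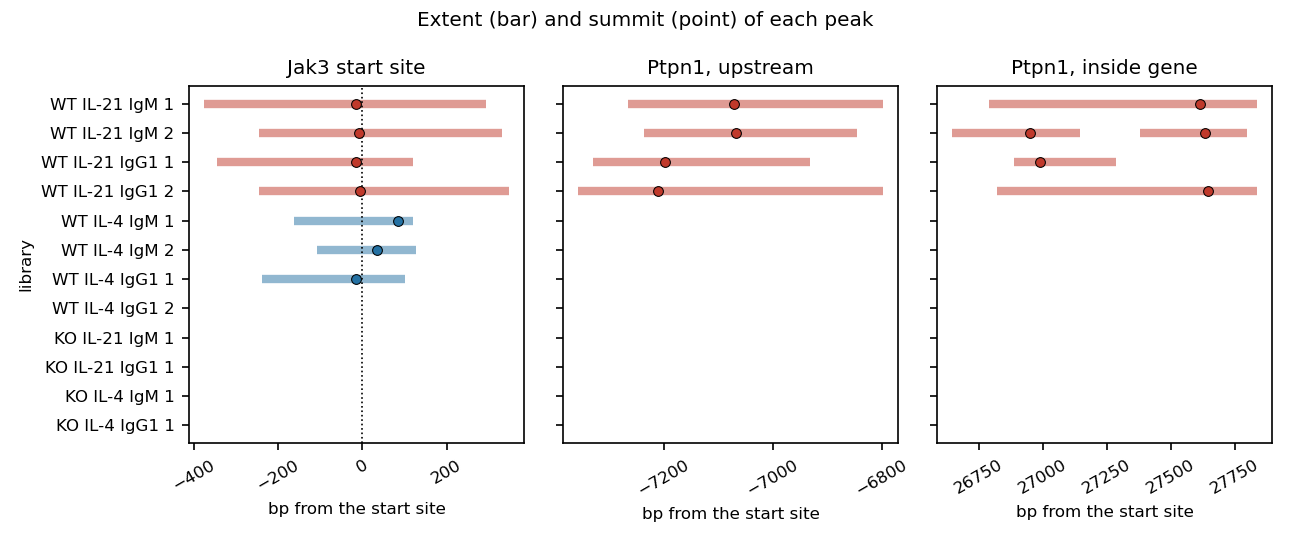
Extent (bar) and summit (point) of each peak in the 3 regions found in all 4 WT IL-21 libraries, in bp from the start site of Jak3 or Ptpn1 (negative, upstream), with 1 line per library. The 4 IL-21 summits at Jak3 coincide within 8 bp. The Ptpn1 upstream peaks overlap, with summits spread over 144 bp, and the summits inside Ptpn1 fall at a pair of places 626 bp apart.

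Upstream of these, region 2 of Ptpn1 (167910114 to 167910594, 20378 bp outside the gene) had a fold of 5.60 in the first IgM and 5.93 in the second IgG1 library with IL-21. Region 4 (167942988 to 167943266, inside the gene) was called only in the first IgM library with IL-21, at 5.54. Region 1 (167902003 to 167902218) was called only in KO IgM cells with IL-21, at a fold of 4.32 and 13 fragments. The first IgM library with IL-21 thus had a peak in 4 of the 5 regions.

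Jak1 encodes the kinase that pairs with JAK3 on both receptors. It lies on chromosome 4 at 101151974 to 101265282 (− strand), and its window held 4 regions, all with Jak1 as the nearest protein-coding gene and all seen with IL-21 in WT alone. Region 1 (101222966 to 101223790, inside the gene) had folds of 7.06 in the first IgM and 5.69 in the second IgG1 library. The 2 summits were 594 bp apart. Regions 3 (101292044 to 101292381) and 4 (101292913 to 101293295) had their strongest summits 26848 and 27778 bp outside the upstream end of the gene, with 531 bp between the edges of the regions. Both lay within the span of the predicted gene Gm12796.

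Region 3 was found in both IgM libraries with IL-21 (5.41 and 2.54) and in neither IgG1 library, and region 4 in the first IgM (5.27) and second IgG1 library (7.71). The peak of the second IgM library in region 3 stood at position 1156 of 1171 by −log10 p, almost at the end of its list. Region 2 (101276624 to 101276846) had 1 peak, in the second IgG1 library, at a fold of 5.06. Each Jak1 region seen in 2 libraries gave p = 0.429 by Fisher's exact test (adjusted p = 1). No region of the series could pass this test after adjustment, so it does not bear on whether the Jak1 regions differ between the cytokines.

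Tyk2, a kinase of interferon and IL-12 family receptors, and Jak2, which serves receptors such as that for interferon gamma, had no region found in more than 1 library. The window of Tyk2 (chromosome 9, gene at 21104068 to 21131393) held 3 regions, each in 1 library and none inside the gene. Region 1 (21091808 to 21092053), at the start of Raver1, had a fold of 3.34 in the first WT IgM library with IL-4. Region 2 (21149930 to 21150225), at the start of the chaperone gene Cdc37, had 4.05 in KO IgM cells with IL-4. Region 3 (21161310 to 21161560), 4265 bp from Pde4a, had 3.96 in the first IgM library with IL-21. The window of Jak2 (chromosome 19, gene at 29251803 to 29313095) was 161293 bp long, above the median of all genes, and held 0 regions in 12 libraries. A region was found in the windows of 56.1% of all protein-coding genes, so an empty window was not rare.

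Ptpn2 encodes TC-PTP, a phosphatase of JAK1, JAK3 and nuclear STAT proteins. All 3 of its regions lay within the gene or across its higher-numbered edge (chromosome 18, 67665501 to 67724632). No promoter window was matched for Ptpn2, so which edge is its start is not given here. Region 1 (67699149 to 67699636) had a fold of 6.82 in the first IgM and 4.95 in the second IgG1 library with IL-21. Region 3 (67724297 to 67724715) spans the higher-numbered edge of the gene, which may be its start. It had folds of 4.25 in the second IgM and 5.20 in the second IgG1 library with IL-21. Region 2 (67709862 to 67710106) was called only in KO IgM cells with IL-4, at 4.18 and 12 fragments. The 2 IL-21 regions had no peak in WT cells with IL-4 or in KO cells, and neither reached all 4 libraries (p = 0.429 each, Fisher's exact test, adjusted p = 1).

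Ptpn6 encodes SHP-1, which inhibitory receptors of B cells recruit and which dampens antigen receptor and cytokine signals. The window of Ptpn6 (chromosome 6, gene at 124720707 to 124738709, − strand) held 2 regions, both inside other genes. Region 1 (124683874 to 124684240) lay inside Lpcat3, a phospholipid acyltransferase gene, 36730 bp outside Ptpn6. Its fold was 9.61 and 5.47 in the IgM libraries with IL-21 and 5.80 in the second IgG1 library with IL-21, on 37, 28 and 22 fragments. It was the only region of these windows found in exactly 3 WT IL-21 libraries (p = 0.143, Fisher's exact test, adjusted p = 1). Without the first IgG1 library it would count as gained, which made 3 gained regions at 2 of the 7 genes. Region 2 (124740621 to 124740943), in Grcc10 and 2161 bp upstream of the start of Ptpn6, had a peak only in the second IgM library with IL-21, at 3.39 and position 988 of 1171.

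**Figure D4:**
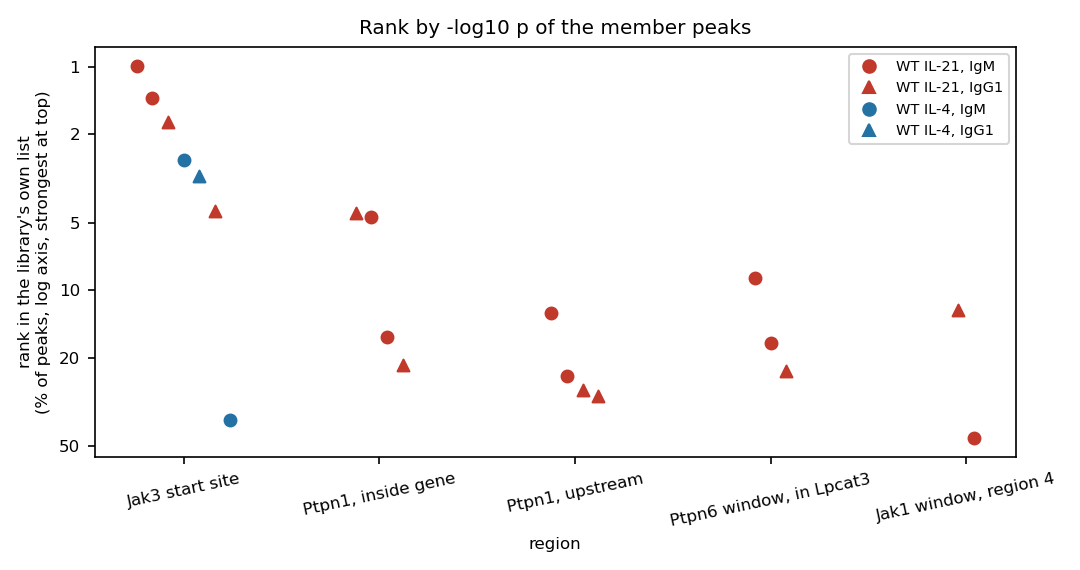
Rank of each peak by −log10 p within its own library's list, as a percentage of that list on a log axis with the strongest peaks at the top, for 5 member regions (red, WT with IL-21; blue, WT with IL-4; circles IgM, triangles IgG1). The start site of Jak3 stands at 0.983% to 4.39% in the IL-21 libraries. With IL-4 it stands at 2.61% and 38.2% in IgM and 3.07% in IgG1 cells. The other regions drawn, with region 4 for Jak1, have IL-21 peaks only, from 4.51% down to 46%.

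KO cells serve as the control for peaks that the antibody gives without its target. How complete the loss of STAT3 was is not given in the labels, and a missing KO peak may be a missed call. Peaks in the 4 WT libraries with IL-21 and in no KO library were found at 3 of the 17 member regions of WT cells (17.6%), against 1.68% of all WT regions. All 3 member regions of the 4 IL-21 libraries lacked a KO peak, as did 125 of all 167 such regions (74.9%). None of the 17 member regions found in WT had a KO peak, where 4.73% of all WT regions had one, so the lack of a KO peak was the common case. The 4 KO peaks in the windows fell in 4 regions of their own, each in 1 library, with folds of 4.05 to 5.30 on 12 to 15 fragments. The 34 WT IL-21 peaks had folds of 2.54 to 29.1 (median 5.87) on 15 to 120 fragments, and the 5 WT IL-4 peaks 3.34 to 7.38 (median 4.86) on 16 to 36. With 1 KO library per group, no test was made.

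Repeated detection was counted as well. Each KO group had 1 library, so no KO group could repeat a peak. Of the 21 member regions 11 were found in at least 2 libraries, against 9.33% of all regions. Of these 11, 9 had no peak in WT cells with IL-4 (all but regions 1 and 2 of Jak3) and 11 had none in KO cells. Among all 1047 regions found in at least 2 libraries, 68% had no WT IL-4 peak and 61.4% no KO peak. The members were chosen with earlier results of these data known, so these shares describe the windows and are no independent evidence about the pathway.

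IgM and IgG1 cells were compared within IL-21. Region 3 of Jak1 was the only member region with a peak in both IgM and neither IgG1 library, and 1.25% of all WT regions had that pattern. The count of 1 fell to 0 with a −log10 q of at least 2, with equal list lengths and with either smaller window. It became 2 without the first IgM or the second IgG1 library with IL-21 and 4 without the second IgM library. No member region showed the reverse, against 0.174% of WT regions. Within IgM cells, 4 of the 17 member regions had peaks in both IL-21 and no IL-4 library (regions 3 and 5 of Ptpn1, region 3 of Jak1 and region 1 of Ptpn6), against 4.32% of all WT regions. Within IgG1 cells, 2 did (regions 3 and 5 of Ptpn1), against 2.43%. With 2 libraries on each side no exact test can pass, and the first IgG1 library had the fewest member peaks of the WT IL-21 libraries (4, against 12, 8 and 10).

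The rest of the pathway was read in the same windows with a list of 41 receptor, STAT, SOCS, PIAS, adaptor, ubiquitin ligase and phosphatase genes, the last being Ptpn11 and Ptprc. Of these, 35 had a region in some library (median 2 per gene), where 56.1% of all protein-coding genes had one (median 1). A gained region was found at 1 of the 41, beside 1.38% of all genes. That gene was Socs3, which encodes a feedback inhibitor of JAK kinases, with 3 such regions. Their median folds over the 4 WT IL-21 libraries were 5.38, 18.8 and 11.3. Stat3 had a region of all 4 WT IL-21 libraries (fold 8.55 to 23.5, 79 bp from the gene) that was also called in 2 of the WT IL-4 libraries and in no KO library, a pattern like that at the start of Jak3. Socs3 and Stat3 were thus the 2 of the 41 genes with a region of all 4 WT IL-21 libraries, against 2.14% of all genes. None of the 41 genes had a region with the reverse pattern.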

How the data were processed

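STAT3 CUT&RUN was analysed from 12 peak lists, 1 per antibody library. Tools listed in the submitters' processing notes, with no role or order, are MACS2 2.2.7.1, Bowtie2 2.4.1, deepTools 3.5.1 and Trimmomatic 0.39, and the build listed is mm10. For the control, the spike-in and any filter, how they were applied is not stated in the labels. Each deposited peak has a fold enrichment (a ratio over the library's local background), a −log10 p and a −log10 q, and a deposited score that follows the −log10 p and was not used. All these values were made by the authors' peak caller within each library, so they describe and rank peaks within a list only.

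Of 13908 peaks, 395 outside chromosomes 1 to 19, X and Y were left out. Peaks were merged at an overlap of at least 1 bp (Python 3.11.15, pandas 2.3.3, SciPy 1.17.1), and merging and calls were tested on simulated data. A region was called gained when all 4 WT IL-21 libraries and no WT IL-4 library had a peak. Presence was tested over all WT regions with Fisher's exact test and Benjamini-Hochberg adjustment. The number of fragments at each summit was solved from the deposited fold and −log10 p, taking the pileup as whole and the background as Poisson. A solution within 0.001 was found for every peak with a −log10 p under 30 (0 unsolved), and for all 43 member peaks, of which 6 had a −log10 p of 30 or more.

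Gene spans, promoter windows and promoter sequences came from RefSeq tables on GRCm38.p6. Positions are 1-based. The named genes are the 7 members, the nearest protein-coding gene of each of their regions, the other pathway genes with a region gained or in all 4 WT IL-21 libraries, and for each member region of all 4 WT IL-21 libraries the 3 regions of the same presence pattern with the closest ranks. The members and lists were chosen with earlier results of these data known. Alternatives were a −log10 q of at least 2, equal list lengths, joining by summits, windows of 10 kb or the gene span, nearest-gene assignment, a call from at least 3 libraries, exact tests within isotype or replicate number, and leaving out each library.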

Additional observations from a re-analysis of the deposited data

How the results depend on the processing

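Of 96 values recomputed under alternatives, 80 kept their call or stayed within 1.5 times of the count reported. Part of this was fixed beforehand. The calls of the exact tests could not change, since no region could pass adjustment. The isotype counts within IL-21 and the count without a KO peak use WT IL-4 peaks only in joining regions. Leaving out an IL-4 library could therefore hardly move them. The 2 gained member regions became 1 when peaks were joined by summits, which splits the site inside Ptpn1, and 1 with the gene span alone, which leaves out the upstream site. The 1 gene with a gained region became 2 when peaks in 3 of the 4 IL-21 libraries sufficed. The 21 regions became 11 with 10 kb on each side, 7 with the gene span alone and 13 with nearest-gene assignment. The 1 region of IgM cells only became 0 with a −log10 q of at least 2, with 623 peaks from every list, and with either smaller window. Leaving out 1 library at a time gave 2 to 3 gained regions, 1 to 2 genes with one, 3 to 4 regions of all WT IL-21 and no KO library, 19 to 21 regions in all, 1 to 4 regions of IgM only and 0 to 1 of IgG1 only. The second gene came without the first IgG1 IL-21 library. The 2 and 4 regions of IgM only came without the first and the second IgM IL-21 library, and 2 also without the second IgG1 IL-21 library.

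The exact p of each Ptpn1 region was 0.0556 with treatment exchanged within isotype (36 arrangements) and 0.125 with the replicate number as a block (16 arrangements), in each case the smallest possible. That of Jak3 was 1 under both, and all adjusted p were 1. The labels do not say that the numbers pair libraries, and the differences between replicates 1 and 2 correlated between the cytokines at −0.014 (IgM) and 0.006 (IgG1) over 7461 regions. Since 90.7% of all regions were found in 1 library only, a low correlation could arise with or without pairing, so it does not settle this. Depth limits what can be seen, since at least 10 to 12 fragments were needed for a peak, and more over a higher background.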

Other observations

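Some regions elsewhere resembled the 3 member regions found in all 4 WT IL-21 libraries in their presence over the 12 libraries and in their rank by −log10 p. Likeness was the mean absolute difference of the rank as a percentage of the list, over the libraries with a peak. The start site of Jak3 shared its presence pattern with 4 other regions. The closest, over 7 libraries, lay inside Otud5, a deubiquitinase gene (difference 5.67 percentage points), 257 bp from Lmna, the gene of the A-type lamins (6.19), and inside Slc39a1, a zinc transporter gene (6.34). The Ptpn1 regions shared theirs with 91 other regions each, over 4 libraries. Closest to the region inside Ptpn1 were regions inside Utp23 (1.38), Map3k1, a MAP kinase kinase kinase gene (2.31), and E2f2, a gene of a cell cycle transcription factor (2.59). Closest to the upstream region were regions inside Abcc4, a drug efflux transporter gene (4.75), 31029 bp from Gprin3 (9.39) and 27863 bp from Cox4i1, a subunit gene of the respiratory chain (9.53).

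The windows of the 7 genes reach into neighbours. Of the 21 regions, 13 had the member as their nearest protein-coding gene and 8 another gene. Those 8 were all of the regions of Tyk2 (3) and Ptpn6 (2) and 3 of the 4 of Jak3. The window of Ptpn6 held 7 other protein-coding genes, those of Jak1 and Ptpn1 held 1 each.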
